A study of Mus musculus with 11 samples.

Results

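The 10 genes described here encode chaperones of the endoplasmic reticulum (ER) and regulators or targets of the unfolded protein response: Hspa5, Hsp90b1, Calr, Pdia4, Xbp1, Atf6, Dnajc3, Dnajb9, Sdf2l1 and Herpud1. They were chosen by symbol, with earlier results of these data known. All 10 were found among the 24421 genes of the count table and among the 13711 genes with enough counts to be tested. RNA was measured by RNA-seq in natural killer (NK) cells sorted from mouse spleen for Ly49H, an activating receptor that binds a protein of mouse cytomegalovirus (MCMV). The hosts were C57BL/6 mixed bone marrow chimeras, in which LDHA-deficient (KO) cells marked by CD45.2 and wild-type (WT) cells marked by CD45.1 developed in one animal. Ldha encodes an isoform subunit of lactate dehydrogenase, the enzyme that turns pyruvate into lactate in glycolysis. The 11 libraries form 4 groups by title, KO D2 (n = 3), WT D2 (n = 3), KO D0 (n = 3) and WT D0 (n = 2), each library from 1 mouse according to the labels. All 4 groups carry the treatment label of in vivo MCMV infection and a label of day 2 after infection, so D0 and D2 come from the titles alone, and whether D0 cells were infected is unclear. Genotype was also taken from the title, because WT libraries are labelled with both genotypes. The labels give neither the age of the mice nor how Ldha was deleted, and a chimeric host may keep some of its own cells.

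Proteins that enter the ER are folded with the help of Hspa5 (BiP, an Hsp70 chaperone), Hsp90b1 (an Hsp90 chaperone), Calr (calreticulin, which binds glycans of folding proteins) and Pdia4 (a disulfide isomerase). When unfolded proteins accumulate, 3 ER membrane sensors, IRE1, PERK and ATF6, raise the capacity for folding: IRE1 splices Xbp1 mRNA so that it encodes an active transcription factor, PERK slows translation, and ATF6 is cut to release another transcription factor. Dnajc3, Dnajb9 and Sdf2l1 encode partners of BiP, and Herpud1 encodes a membrane protein of ER-associated degradation (ERAD), which removes proteins that fail to fold. In lymphocytes the same genes are known to be induced when cells secrete much protein, as plasma cells do. A count per gene cannot tell spliced from unspliced Xbp1.

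The promoters of ER chaperone genes are known to carry the ER stress response element (ERSE), CCAAT and CCACG separated by 9 bases, which binds ATF6 and XBP1 together with NF-Y. RefSeq promoter windows (GRCm38.p6) of 250 bases before and 50 after a gene's start were matched for 9 of the 10 genes, and Atf6 was not among them. ERSE as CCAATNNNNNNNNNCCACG, on either strand, was found in 4 of the 9 (Hspa5, Hsp90b1, Calr and Dnajc3), against 39 of all 32851 promoter windows (0.119%). Its second form, ATTGG and CCACG with 1 base between them, was found in Herpud1 alone of the 9 and in 12 of all windows (0.0365%), and TGACGTGG, another element described for these factors, in 0 of the 9 and in 222 of all windows (0.676%). A match to the letters is a description and not a measured binding site. The 5 windows with a match are printed because they set Dnajc3 and Herpud1, whose RNA was lower in KO D2 than in WT D2, beside the abundant chaperones, whose RNA was not, and are given 5′ to 3′ on the gene's strand up to the base before its start, with the motif in capitals.
Hspa5 (chr2:34771840-34772089, plus strand, long form motif in capitals): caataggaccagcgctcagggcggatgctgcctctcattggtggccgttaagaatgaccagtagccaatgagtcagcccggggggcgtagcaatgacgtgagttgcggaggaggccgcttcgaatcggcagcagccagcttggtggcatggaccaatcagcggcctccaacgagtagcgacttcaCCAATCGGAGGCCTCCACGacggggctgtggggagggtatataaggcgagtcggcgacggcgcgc
Hsp90b1 (chr10:86705445-86705694, minus strand, a pair of long form motifs in capitals): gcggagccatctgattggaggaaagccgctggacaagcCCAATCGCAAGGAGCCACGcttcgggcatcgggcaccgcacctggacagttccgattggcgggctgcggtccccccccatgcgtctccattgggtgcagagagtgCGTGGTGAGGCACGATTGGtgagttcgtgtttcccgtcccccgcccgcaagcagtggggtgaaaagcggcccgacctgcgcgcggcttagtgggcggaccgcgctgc
Calr (chr8:84846932-84847181, minus strand, long form motif in capitals): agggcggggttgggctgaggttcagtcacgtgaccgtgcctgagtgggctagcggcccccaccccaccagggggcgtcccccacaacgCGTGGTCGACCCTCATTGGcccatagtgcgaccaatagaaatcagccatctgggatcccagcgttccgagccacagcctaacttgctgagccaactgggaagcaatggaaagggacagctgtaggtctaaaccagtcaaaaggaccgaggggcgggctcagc
Dnajc3 (chr14:118937682-118937931, plus strand, long form motif in capitals): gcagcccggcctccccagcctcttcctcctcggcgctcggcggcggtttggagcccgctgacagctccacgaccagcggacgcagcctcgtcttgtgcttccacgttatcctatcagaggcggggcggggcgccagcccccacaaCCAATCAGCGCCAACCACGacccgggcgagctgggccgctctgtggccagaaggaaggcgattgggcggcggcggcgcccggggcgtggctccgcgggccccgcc
Herpud1 (chr8:94386179-94386428, plus strand, short form motif in capitals): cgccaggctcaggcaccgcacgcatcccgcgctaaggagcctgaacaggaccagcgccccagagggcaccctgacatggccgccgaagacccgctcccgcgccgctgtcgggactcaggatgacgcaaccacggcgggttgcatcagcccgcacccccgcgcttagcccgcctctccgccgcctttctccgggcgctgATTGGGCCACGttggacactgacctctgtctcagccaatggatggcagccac
In Hspa5 the motif spans bases 65 to 47 before the start, in Dnajc3 bases 105 to 87 and in Herpud1 bases 52 to 42. In Calr it lies on the other strand at bases 162 to 144. Hsp90b1 has 1 on each strand, at bases 212 to 194 and 107 to 89.

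The libraries held 19452460 to 27992092 counts, the lowest count of a member in any library was 147 (Dnajb9 in KO D0 replicate 3), and replicate libraries differed by more than counting error (chi-square per gene 17.3 to 82.9). Levels are given as CPM, which are counts scaled to an equal library size with trimmed-mean (TMM) factors. Ldha, the targeted gene, averaged 109.6 ± 7.17 CPM in KO D2 and 2903 ± 179 CPM in WT D2 (SD, n = 3 each). At D0 it averaged 99.4 ± 7.16 CPM in KO cells (SD, n = 3) and 609.5 ± 66.2 CPM in WT cells (SD, n = 2), which matches the titles. All 8 NK cell markers were present, their sum running from 8422 to 9777 CPM in KO D2, 8638 to 8816 in WT D2, 6824 to 7563 in KO D0 and 8504 to 8521 in WT D0. Prf1 made up much of the D2 sums, with means of 5330 CPM in KO and 4478 CPM in WT. By edgeR (adjusted p under 0.05), 1 of the 8 was higher and 5 lower in WT D2 than in WT D0. In KO, 2 were higher and 5 lower at D2. Of all genes, 27.5% were higher and 26.0% lower in WT, and 27.0% and 34.5% in KO. In the library KO D0 replicate 3, Klra8 (Ly49H) stood at 399 CPM, against 797 and 1254 in the other KO D0 libraries. At D2 it was at 475 to 493 CPM in KO and 419 to 449 CPM in WT. Haemoglobin RNA stood apart in KO D0 replicate 2 and WT D0 replicate 2, where the 3 erythroid markers summed to 700.2 and 640.0 CPM.

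The abundant chaperones made up most of the RNA of these genes, and all 4 rose at D2 in both genotypes. Hspa5 was measured at 5147, 4562 and 4083 CPM in KO D2 and 5072, 4291 and 3963 CPM in WT D2, against 908, 959 and 776 CPM in KO D0 and 875 and 769 CPM in WT D0. Every D2 library lay far above every D0 library, and the genotypes interleaved within each day. The log2 change of D2 against D0 was 2.38 in KO (SE 0.14, edgeR adjusted p = 3.24e-08) and 2.43 in WT (SE 0.16, edgeR adjusted p = 1.25e-07), a fold of 5.22 and of 5.41.

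Hsp90b1 stood at 2184, 1925 and 2055 CPM in KO D2 and at 2504, 1834 and 1959 CPM in WT D2. Its D0 levels were 437, 404 and 347 CPM in KO and 440.1 and 438 CPM in WT, so that this Hsp90 chaperone also separated the days without overlap and not the genotypes at D2. Its log2 change was 2.38 in KO (SE 0.14) and 2.26 in WT (SE 0.16). Calr, the glycan-binding chaperone, was at 2222, 1940.5 and 2116 CPM in KO D2, 2016, 1560.3 and 1646 CPM in WT D2, 364, 345 and 357 CPM in KO D0 and 325 and 312 CPM in WT D0. Its log2 change was 2.56 in KO (SE 0.12) and 2.45 in WT (SE 0.14), the largest of the 10 genes in both, though within 2 SE of that of Hspa5. Pdia4, the disulfide isomerase, was at 739, 584 and 690.0 CPM in KO D2 and 835, 572 and 641 CPM in WT D2, against 179, 172 and 212 CPM in KO D0 and 183 and 175 CPM in WT D0. Its log2 change was 1.84 in KO (SE 0.15) and 1.93 in WT (SE 0.18), and all of these day changes passed the test (edgeR adjusted p of 1.68e-06 at most). In bulk RNA, fewer cells of a type and less RNA per cell cannot be told apart.

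Between the genotypes at D2, none of the 4 chaperones passed the test. The log2 difference of KO D2 from WT D2 was 0.05 for Hspa5 (95% confidence interval -0.24 to 0.34), -0.03 for Hsp90b1 (-0.32 to 0.25), -0.03 for Pdia4 (-0.35 to 0.30) and 0.27 for Calr (0.02 to 0.51, edgeR adjusted p = 0.154). These intervals are not adjusted for the number of genes. Calr passed in 4 of 18 alternatives. Among them were the fit with the replicate number as a block (log2 0.27, edgeR adjusted p = 0.0146), the DESeq2 test (log2 0.36, adjusted p = 0.0453) and the fit without WT D2 replicate 1 (log2 0.36, edgeR adjusted p = 0.0487). Together the 4 genes summed to between 8945 and 10292 CPM in KO D2 libraries and between 8210 and 10427 CPM in WT D2 libraries, against 1693 to 1888 CPM in KO D0 and 1693 to 1823 CPM in WT D0.

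**Figure D1:**
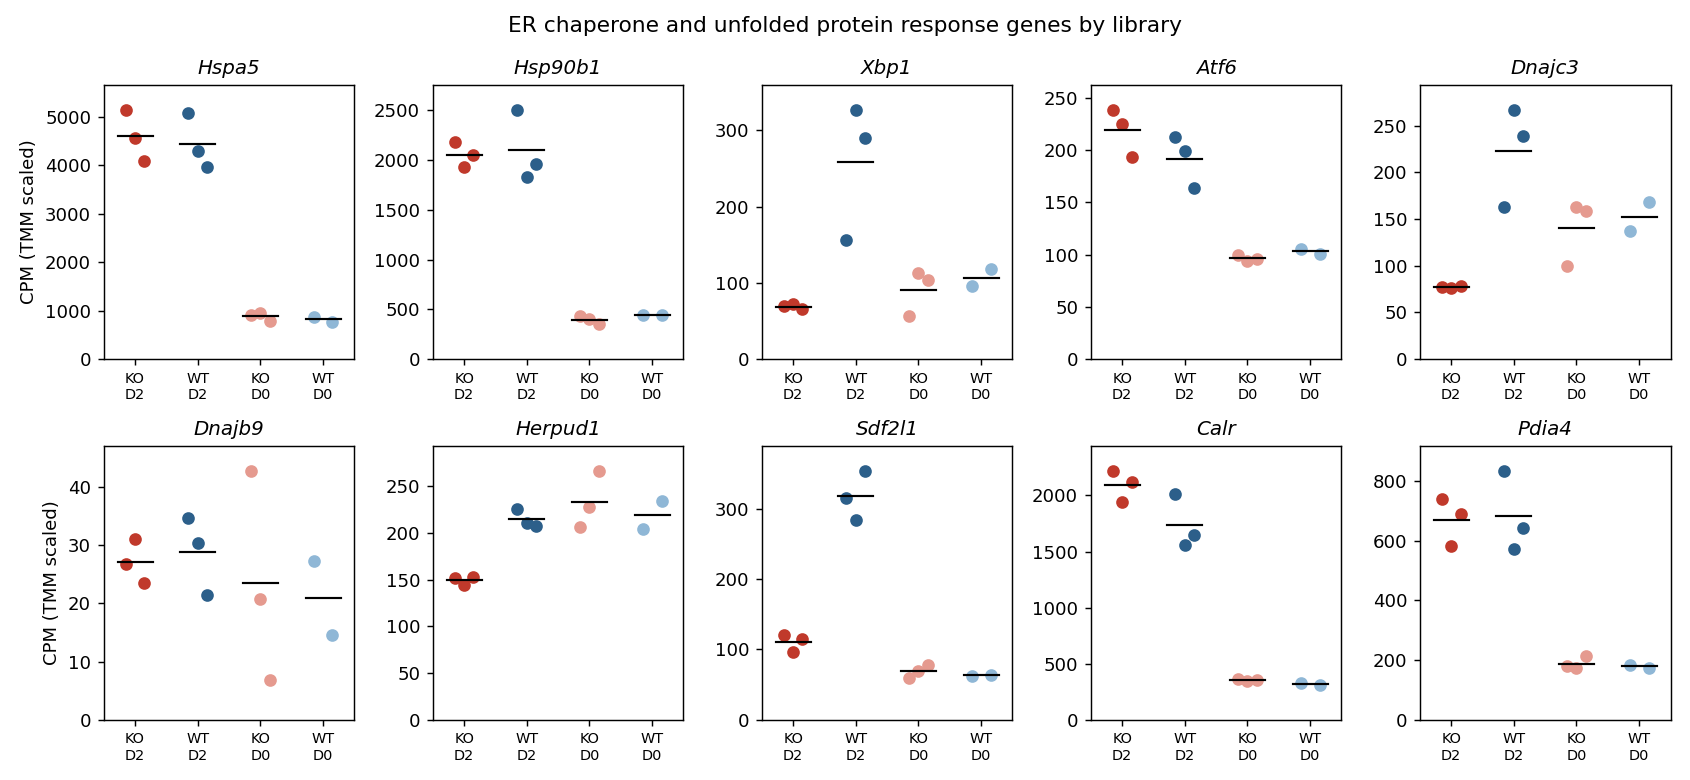
CPM (TMM scaled, linear axes from 0) of each of the 10 genes by library; each point is 1 library, bars are group means, and groups run KO D2, WT D2, KO D0, WT D0 from left to right. Hspa5, Hsp90b1, Calr and Pdia4 separate D2 from D0 in both genotypes, whereas Xbp1, Dnajc3 and Sdf2l1 stand higher in WT D2 than in KO D2.

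Xbp1, the transcription factor acted on by IRE1, did not follow the chaperones in KO cells. It was measured at 69.0, 72.3 and 65.1 CPM in KO D2 and at 157, 327 and 291 CPM in WT D2. The 3 KO D2 libraries lay close together and below every WT D2 library, of which replicate 1 was the lowest. At D0 it was at 56.7, 113 and 104 CPM in KO and at 95.6 and 118 CPM in WT, with KO D0 replicate 1 apart from the other 4. Xbp1 was lower in KO D2 than in WT D2 by a log2 fold change of -1.91 (SE 0.28, edgeR adjusted p = 0.000518), a fold of 0.267. It rose in WT at D2 (log2 1.27, SE 0.31, edgeR adjusted p = 0.00385), and that call was lost without WT D0 replicate 2 (log2 1.07, edgeR adjusted p = 0.0572). In KO its D2 change of -0.41 did not pass (SE 0.27, edgeR adjusted p = 0.209), though it did without KO D0 replicate 1 (log2 -0.71, edgeR adjusted p = 0.0197).

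Atf6, which encodes the sensor that is itself cut into a transcription factor, rose at D2 in both genotypes. It was at 238, 225 and 194 CPM in KO D2 and 213, 199 and 164 CPM in WT D2, against 99.97, 93.7 and 95.5 CPM in KO D0 and 106 and 100.3 CPM in WT D0. The days did not overlap and the genotypes did within D2. The log2 change was 1.18 in KO (SE 0.12, edgeR adjusted p = 3.3e-06) and 0.90 in WT (SE 0.14, edgeR adjusted p = 0.000131). KO D2 differed from WT D2 by 0.19 (95% confidence interval -0.07 to 0.45), which did not pass.

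Of the partners of BiP, Sdf2l1 and Dnajc3 differed between the genotypes at D2 and Dnajb9 did not. Sdf2l1, which stabilises the cycle of BiP together with ER DNAJ proteins, was at 120.0, 97.1 and 114 CPM in KO D2 and 315, 285 and 354 CPM in WT D2. Its D0 levels were 59.6, 68.7 and 78.5 CPM in KO and 62.6 and 63.9 CPM in WT. All 4 groups but the 2 at D0 were separate from each other. Sdf2l1 was lower in KO D2 than in WT D2 (log2 -1.52, SE 0.13, edgeR adjusted p = 5.35e-05), a fold of 0.348, and rose at D2 by 0.68 in KO (SE 0.13, edgeR adjusted p = 0.000641) and by 2.33 in WT (SE 0.16, edgeR adjusted p = 1.64e-07).

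Dnajc3, a DNAJ co-chaperone that is also known as an inhibitor of PERK, was at 77.5, 76.1 and 78.1 CPM in KO D2 and 163, 267 and 239 CPM in WT D2. At D0 it was at 100.1, 163 and 159 CPM in KO and 137 and 168 CPM in WT. As with Xbp1, the lowest WT D2 library was replicate 1 and the lowest D0 library was KO replicate 1. Dnajc3 was lower in KO D2 than in WT D2 (log2 -1.53, SE 0.21, edgeR adjusted p = 0.000336), a fold of 0.346. It fell at D2 in KO (log2 -0.86, SE 0.20, edgeR adjusted p = 0.00243), whereas its change of 0.55 in WT did not pass (SE 0.23, edgeR adjusted p = 0.0584). With the offset for GC content described further on, the fall in KO did not pass (log2 -0.22, edgeR adjusted p = 0.219). The WT change did pass with the DESeq2 test (log2 0.54, adjusted p = 0.0462), in the fit blocked by replicate number (log2 0.67, edgeR adjusted p = 0.00509), with that GC offset (log2 0.61, edgeR adjusted p = 0.00743) and without KO D0 replicate 1 or without WT D2 replicate 1 (edgeR adjusted p = 0.0381 and 0.0156).

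Dnajb9, a DNAJ co-chaperone that targets BiP to IRE1, was the least abundant of the 10 genes. It was at 26.8, 31.0 and 23.4 CPM in KO D2, 34.6, 30.3 and 21.5 CPM in WT D2, 42.8, 20.7 and 6.79 CPM in KO D0 and 27.3 and 14.6 CPM in WT D0. The spread within KO D0 was wider than any difference between group means. No comparison passed for Dnajb9 as fitted here. With the replicate block and GC offset together, its D2 change in KO passed (log2 1.02, edgeR adjusted p = 0.0496), as did the KO minus WT difference of the day changes (log2 1.19, edgeR adjusted p = 0.00700). The interval of its KO D2 against WT D2 difference reached from -1.09 to 0.92 on the log2 scale, which bounds it between folds of 0.469 and 1.89.

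Herpud1, the ERAD membrane protein, was at 152, 144 and 153 CPM in KO D2 and at 226, 210.4 and 207 CPM in WT D2. At D0 it was at 206, 227 and 267 CPM in KO and 204 and 234 CPM in WT, so that the KO D2 libraries were below all 8 others. Herpud1 was lower in KO D2 than in WT D2 (log2 -0.52, SE 0.12, edgeR adjusted p = 0.0066) and fell at D2 in KO (log2 -0.64, SE 0.12, edgeR adjusted p = 0.000341). In WT it changed by -0.03 (95% confidence interval -0.31 to 0.25).

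Counted over the 10 genes, 4 were lower and 0 higher in KO D2 than in WT D2, against a background of 14.5% of all 13711 genes called lower and 1.61% called higher. The 4 held under every one of the 18 alternatives run for this comparison. At D0 edgeR and DESeq2 each called 0 of 10 genes between the genotypes, and edgeR called 0.153% of all genes in either direction. At an unadjusted edgeR p under 0.05 there were 0 of 10, beside 597 of all 13711 genes. Some D0 differences were loosely bounded, with 95% confidence intervals on the log2 scale of -0.87 to 0.42 for Xbp1 and -0.96 to 1.29 for Dnajb9. D2 against D0 called 6 genes higher and 2 lower in KO (background 27.0% higher and 34.5% lower) and 7 higher and 0 lower in WT (background 27.5% higher and 26.0% lower). The median log2 change of the 10 genes was 0.93 in KO and 1.60 in WT, beside -0.20 and -0.07 over all genes. The day comparisons and the genotype comparisons share libraries, so they are not separate evidence.

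**Figure D2:**
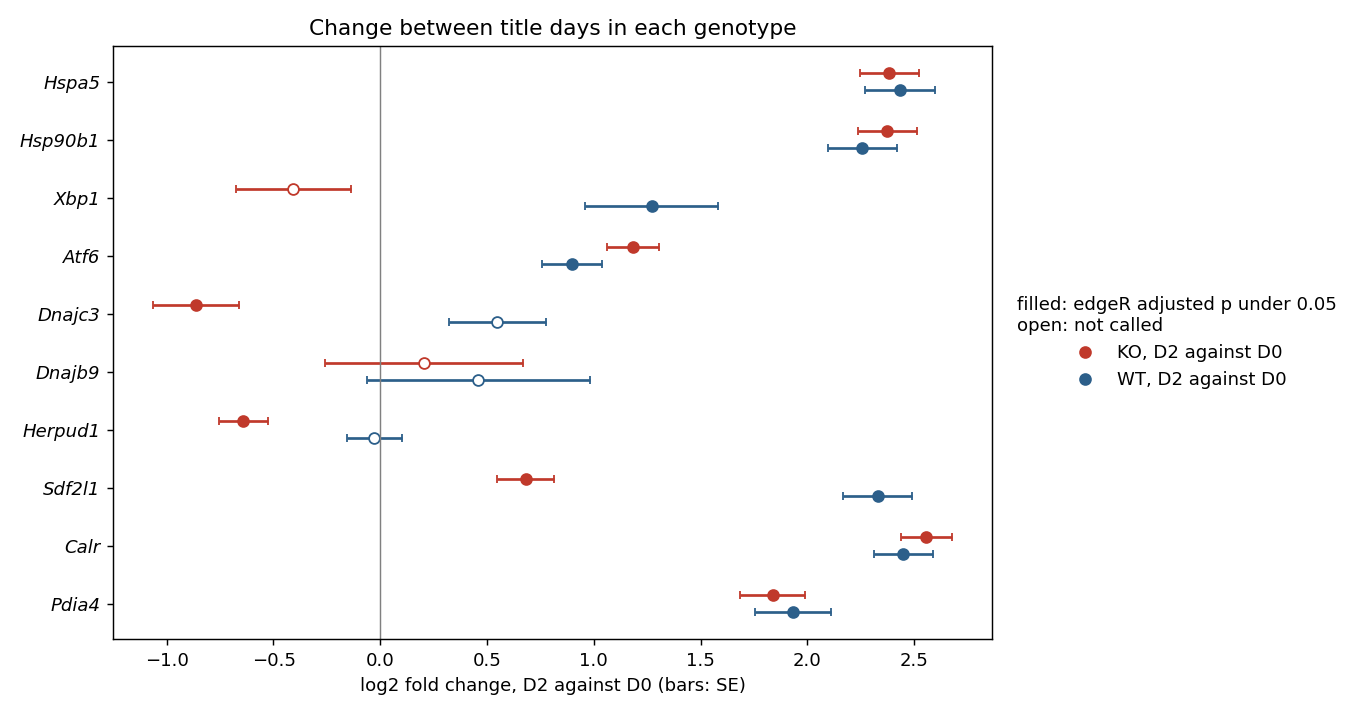
Log2 fold change of D2 against D0 in KO (upper point of each pair) and WT (lower point), with bars of 1 SE; filled points passed edgeR's adjusted p threshold of 0.05 and open points did not. Hspa5, Hsp90b1, Calr, Pdia4 and Atf6 lie to the right in both genotypes, and Xbp1, Dnajc3, Herpud1 and Sdf2l1 lie further left in KO than in WT.

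The difference between the genotypes' day changes was tested itself, as KO minus WT. It passed for Sdf2l1 (log2 -1.65, SE 0.20, edgeR adjusted p = 0.00608), Dnajc3 (log2 -1.41, SE 0.30, edgeR adjusted p = 0.023) and Xbp1 (log2 -1.68, SE 0.41, edgeR adjusted p = 0.0334), 3 lower and 0 higher of 10, against a background of 5.72% of all genes called lower and 0.124% called higher. Herpud1 missed it at -0.61 (SE 0.17, edgeR adjusted p = 0.0578), and passed in the fit blocked by replicate number (log2 -0.69, edgeR adjusted p = 0.00211) and without KO D0 replicate 1 (log2 -0.69, edgeR adjusted p = 0.0187). These fits are not separate support, because KO D0 replicate 1 has no WT partner and adds nothing to the blocked difference. For the chaperones the difference was -0.05 in Hspa5 (95% confidence interval -0.48 to 0.38), 0.12 in Hsp90b1 (-0.31 to 0.54), 0.11 in Calr (-0.26 to 0.47) and -0.10 in Pdia4 (-0.58 to 0.39). These calls lean on single libraries: of the 11 fits that each leave out 1 library, Sdf2l1 passed in 10, Dnajc3 in 3 and Xbp1 in 2. Sdf2l1 was lost without WT D0 replicate 2 (log2 -1.62, edgeR adjusted p = 0.0632). Dnajc3 passed without KO D0 replicate 1, KO D0 replicate 3 or WT D2 replicate 1 and Xbp1 without KO D0 replicate 1 or WT D2 replicate 1. Over all 11, the Dnajc3 difference ran from -1.60 to -1.26 and that of Xbp1 from -1.94 to -1.47, with edgeR adjusted p up to 0.146 and 0.176.

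The GC content of the transcript moved with these genotype differences. For each gene the highest GC content of any 200-base window of its longest protein-coding transcript (GENCODE M21, same build) was taken as its peak GC. Of 4903 genes with a peak GC of at least 70%, 34.5% were called lower in KO D2 than in WT D2 and 0.571% higher, whereas of 7916 genes under 70% the shares were 3.34% and 2.29%. Among the 10 genes, Xbp1 (76%), Dnajc3 (73%), Dnajb9 (72.5%) and Sdf2l1 (71%) lay at or above 70%, and 3 of these 4 were lower. Herpud1 (69.5%), Hsp90b1 (67%), Hspa5 (66%), Calr (66%), Pdia4 (65%) and Atf6 (59%) lay below it, and 1 of these 6 was lower.

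The mean log2 level of high-GC genes relative to the other genes, centred over the libraries, averaged -0.48 ± 0.05 over the KO D2 libraries and 0.06 ± 0.20 over the WT D2 libraries (SD, n = 3 each). At D0 the averages were 0.25 ± 0.13 for KO (SD, n = 3) and 0.25 ± 0.06 for WT (SD, n = 2). Within WT D2 it was -0.17 in replicate 1, 0.23 in replicate 2 and 0.11 in replicate 3, and within KO D0 0.11 in replicate 1 against 0.34 and 0.31. Replicate 1 was thus lowest in both groups, as it was for Xbp1 and Dnajc3. The other high-GC members, Dnajb9 and Sdf2l1, did not share this order. For Dnajb9 replicate 1 was highest in both groups, at 34.6 CPM in WT D2 and 42.8 CPM in KO D0. Its other libraries stood at 30.3 and 21.5 CPM in WT D2 and at 20.7 and 6.79 CPM in KO D0. For Sdf2l1 replicate 1 was lowest in KO D0, at 59.6 CPM. In WT D2 its lowest library was replicate 2, at 285 CPM against 315 CPM in replicate 1. A fit with an offset for each library's trend over peak GC kept the 4 genes lower in KO D2 than in WT D2, at log2 -1.18 for Xbp1 (edgeR adjusted p = 0.00144), -1.21 for Sdf2l1 (0.000167), -0.97 for Dnajc3 (0.00129) and -0.37 for Herpud1 (0.0301). In that fit the difference of the day changes passed for Sdf2l1 (log2 -1.32, edgeR adjusted p = 0.0172) and not for Xbp1 (log2 -0.93, edgeR adjusted p = 0.12) or Dnajc3 (log2 -0.84, edgeR adjusted p = 0.0908). Over all genes that fit called 1189 lower and 665 higher in KO D2 than in WT D2, against 1986 and 221 without the offset. The offset removes any true difference that runs with GC content, and the part of GC content in the results was not tested.

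**Figure D3:**
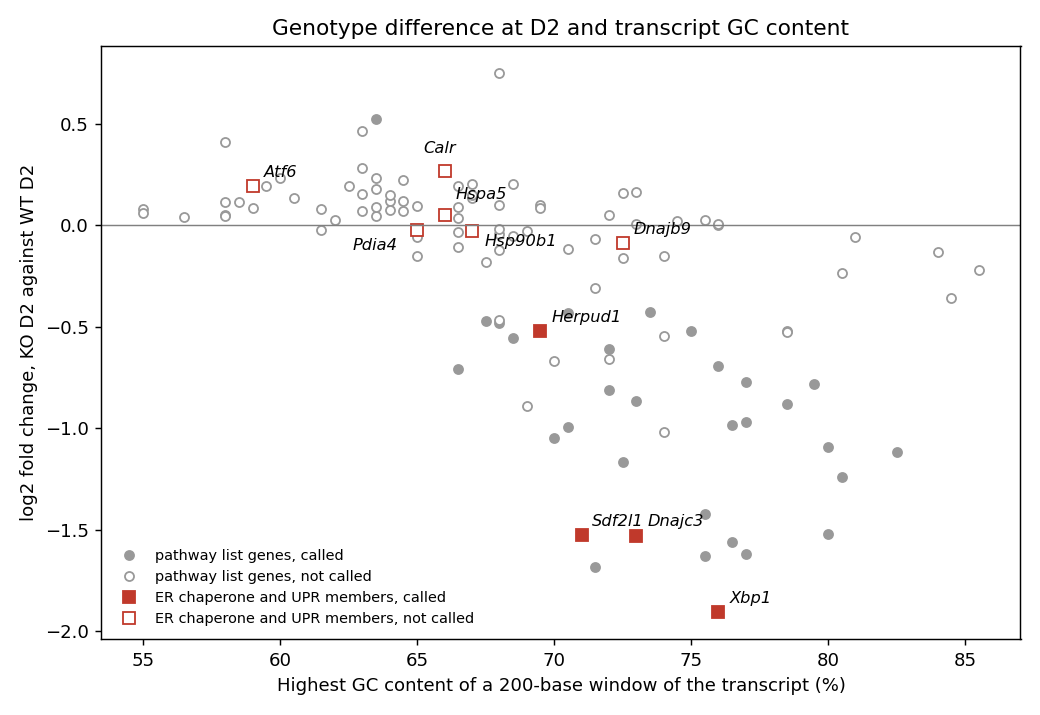
Log2 fold change of KO D2 against WT D2 for the 10 genes (red squares) and 107 other ER genes of 6 lists (grey circles) against peak GC, the highest GC content of a 200-base window of the transcript in percent; filled symbols passed edgeR's adjusted p threshold of 0.05. Most filled symbols lie below 0 and at 70% or more, with Herpud1 just under that at 69.5%.

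Beyond the 10 genes, 107 ER genes in 6 lists mostly rose by day. Of them, 65 were higher and 17 lower in KO D2 than in KO D0 (27.0% and 34.5% of all genes tested), and 70 higher and 7 lower in WT D2 than in WT D0 (27.5% and 26.0% of all genes). Between the genotypes at D2, 28 were lower and 1 higher (14.5% and 1.61% of all genes, whose calls were likewise mostly lower), 24 of the 28 with a peak GC of at least 70% (24 of 48 such genes, against 4 of 59 below it). With the GC offset, 16 were lower and 8 higher. At D0 edgeR and DESeq2 each called 0 of 107 between genotypes. At an unadjusted edgeR p under 0.05 there were 0 of 107, beside 597 of all 13711 genes. The fit blocked by replicate number called 2 of 107 lower, beside 160 of all genes. The median log2 difference of KO D2 from WT D2 was -0.03, beside 0.01 over all genes (0.06 beside 0.10 with RLE scaling, DESeq2's size factors).

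In the ER lumen, 14 other chaperones and folding helpers were counted. In KO D2 against KO D0, 11 rose and 1 fell (median log2 1.46), and in WT 10 rose and 0 fell (median 1.43). The shares of all genes, to be set beside this list and those below, were 27.0% higher and 34.5% lower in KO. In WT they were 27.5% higher and 26.0% lower. Hyou1, a large Hsp70 relative that exchanges nucleotide on BiP, stood at 270.1 ± 11.1 CPM in KO D2 and 300.1 ± 35.1 CPM in WT D2 (SD, n = 3 each), and rose by log2 2.79 in KO (SE 0.17) and 3.10 in WT (SE 0.21). Creld2, a stress-induced folding factor, was lower in KO D2, at 75.5 ± 7.59 CPM, than in WT D2, at 243 ± 34.4 CPM (SD, n = 3 each, log2 -1.69, SE 0.24, edgeR adjusted p = 0.000446). Manf, a BiP-binding factor with a peak GC of 66.5%, was also lower, at 248 ± 16.9 CPM in KO D2 and 406 ± 31.7 CPM in WT D2 (log2 -0.71, SE 0.11, edgeR adjusted p = 0.000631), while it rose at D2 in both genotypes (log2 2.02 in KO and 2.76 in WT). With Dnajb11 and Dnajc1 they made 4 of 14 lower and 0 higher in KO D2 than in WT D2 (14.5% and 1.61% of all genes).

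Of 14 disulfide isomerases and oxidases, 10 rose and 2 fell at D2 in KO and 9 rose and 1 fell in WT. Between the genotypes, 6 were lower and 0 higher in KO D2 than in WT D2 (14.5% and 1.61% of all genes). Pdia3, the isomerase that works with calreticulin and calnexin, was at 697 ± 23.0 CPM in KO D2 and 2053 ± 78.2 CPM in WT D2 (SD, n = 3 each, log2 -1.56, SE 0.10, edgeR adjusted p = 1.43e-05). Calr, its partner, did not pass between those groups. Pdia6, another isomerase, rose alike by log2 2.62 in KO (SE 0.12) and 2.57 in WT (SE 0.14). Txndc5 went the other way by day, falling at D2 by 2.38 in KO (SE 0.20) and by 1.16 in WT (SE 0.21) on the log2 scale.

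Of the 16 sensors and signalling genes, 5 rose and 4 fell at D2 in KO and 7 rose and 2 fell in WT. Of all genes, 27.0% rose and 34.5% fell in KO, so the KO counts lay near those shares. In WT, 27.5% of all genes rose and 26.0% fell. Ddit3 (CHOP), a transcription factor induced through PERK, fell in both, to 15.4 ± 2.34 CPM in KO D2 against 33.2 ± 2.11 CPM in KO D0 (SD, n = 3 each, log2 -1.11, SE 0.15, edgeR adjusted p = 3.68e-05) and to 11.1 ± 0.65 CPM in WT cells at D2 (SD, n = 3) against 28.1 ± 4.14 CPM at D0 (SD, n = 2, log2 -1.33, SE 0.17). Ppp1r15a, the stress-induced phosphatase subunit that reverses the action of PERK, fell in KO (log2 -0.88, SE 0.24, edgeR adjusted p = 0.00594). Rtcb, the ligase that joins the cut Xbp1 mRNA, rose in both, to 243 ± 13.8 CPM in KO D2 against 114 ± 10.6 CPM in KO D0 (SD, n = 3 each) and to 229 ± 8.97 CPM in WT cells at D2 (SD, n = 3) against 107 ± 20.5 CPM at D0 (SD, n = 2). Between the genotypes at D2, Tmbim6, an ER membrane protein that restrains cell death, was higher in KO (log2 0.53, SE 0.14, edgeR adjusted p = 0.0164), 1 of the 107 called so, and in 14 of 18 alternatives. Ppp1r15b and Atf6b were lower, which is 2 of 16 and near the 14.5% of all genes. Ppp1r15b lost that call with the GC offset, and Atf6b kept it in 10 of 18 alternatives.

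Of 19 ERAD genes, 6 rose and 6 fell at D2 in KO, near the shares of all genes (27.0% higher and 34.5% lower), and 9 rose and 3 fell in WT. Between the genotypes, 8 were lower and 0 higher in KO D2 than in WT D2, where 14.5% of all genes were lower. Sel1l, the adaptor of the ERAD ubiquitin ligase, was at 76.5 ± 3.57 CPM in KO D2 and 152 ± 6.35 CPM in WT D2 (SD, n = 3 each, log2 -0.99, SE 0.11, edgeR adjusted p = 0.000128). Derl1, part of the channel through which ERAD substrates leave the ER, was lower as well (log2 -1.17, SE 0.13, edgeR adjusted p = 0.000134). Selenos, which links that channel to the cytosolic extraction machinery, rose by 1.27 in KO (SE 0.11) and 1.13 in WT (SE 0.12).

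The entry machinery moved most uniformly by day: of 22 translocon, signal peptidase and oligosaccharyltransferase genes, 20 rose and 0 fell in KO and 21 rose and 0 fell in WT (median log2 1.44 and 1.33). Stt3a, a catalytic subunit of the glycan transferase, rose by 1.69 in each genotype (SE 0.10 in KO and 0.12 in WT). Its relative Stt3b was lower in KO D2, at 50.9 ± 5.53 CPM, than in WT D2, at 156 ± 47.1 CPM (SD, n = 3 each, log2 -1.62, SE 0.23, edgeR adjusted p = 0.000467), and Ddost, another subunit, likewise (log2 -1.42, SE 0.16, edgeR adjusted p = 0.000109). They were 2 of the 3 lower genes of the 22, a share near the 14.5% of all genes. Of 22 genes of glycan quality control and export from the ER, 13 rose and 4 fell at D2 in KO, and 14 rose and 1 fell in WT. Between the genotypes, 5 were lower in KO D2 than in WT D2, where 14.5% of all genes were lower. Kdelr2, which returns ER chaperones from the Golgi, was lower in KO D2, at 82.4 ± 3.62 CPM, than in WT D2, at 170.2 ± 15.4 CPM (SD, n = 3 each, log2 -1.05, SE 0.11).

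**Figure D4:**
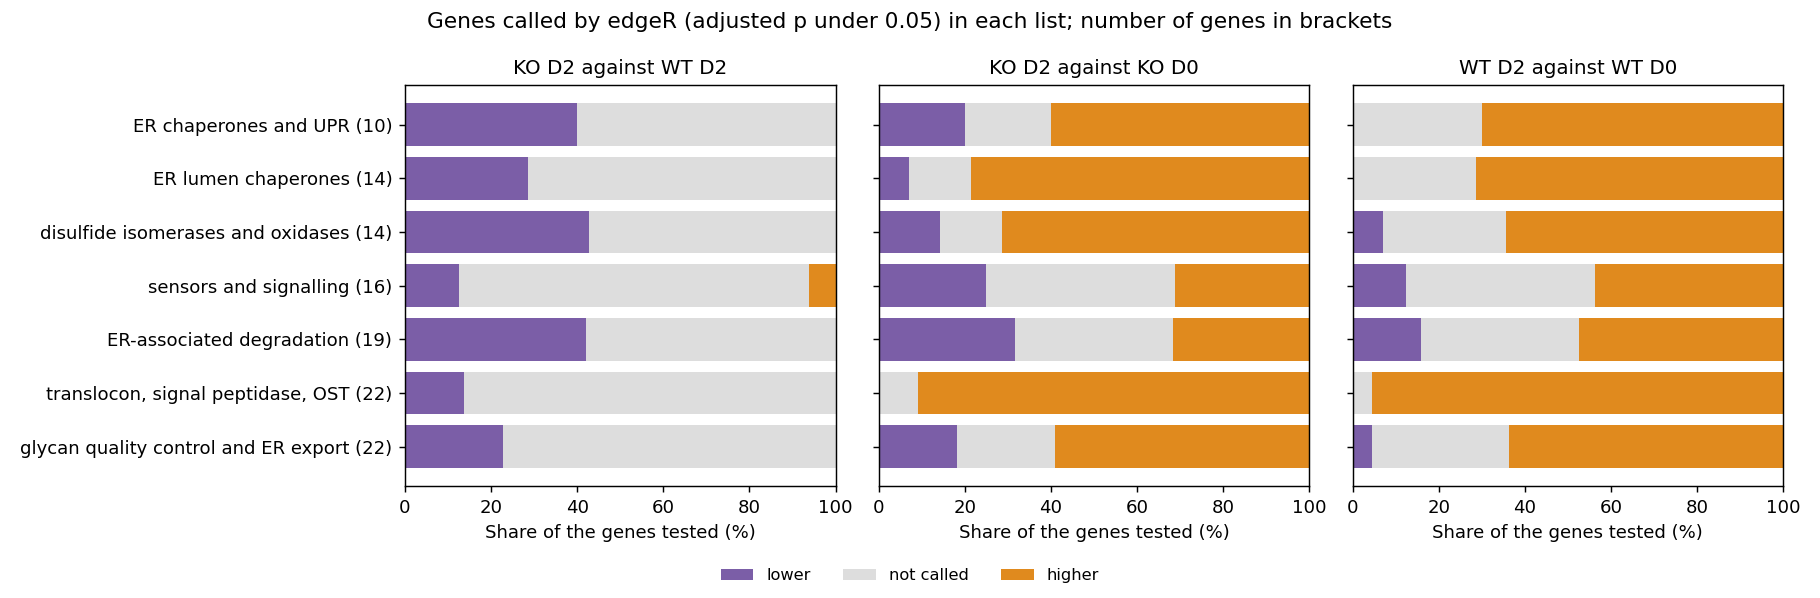
Share of genes called lower (purple), not called (grey) and higher (orange) by edgeR in the 10 genes and each of 6 lists of other ER genes, with the number of genes in brackets, for KO D2 against WT D2, KO D2 against KO D0 and WT D2 against WT D0. Calls by genotype were nearly all lower, and calls by day were mostly higher, most uniformly for the translocon list.

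Per kilobase of transcript, Hspa5 had the highest level of the 10 genes in every group, at 1252 CPM per kb in KO D2, 1209.7 in WT D2, 239.96 in KO D0 and 224 in WT D0. Calr and Hsp90b1 followed in all 4 groups. At D2 Calr was at 958 CPM per kb in KO and 797 in WT, and Hsp90b1 at 727 in KO and 743 in WT. Dnajb9 was lowest throughout, with group means of 8.50 to 11.7 CPM per kb. Sdf2l1 had rank 5 in KO D2, at 99.7 CPM per kb, and rank 4 in WT D2, at 287, where Pdia4 stood next to it at 285 with overlapping libraries. Herpud1 had rank 6 in KO D2 at 76.6 CPM per kb, rank 7 in WT D2 at 109.9, and rank 4 in KO D0 at 119 and in WT D0 at 112. Lengths are those of 1 transcript per gene, so these levels are approximate.

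Across the 11 libraries, the log2 CPM of Hspa5 ran with that of Hsp90b1 (Pearson r 0.994), Calr (0.993), Pdia4 (0.984) and Atf6 (0.979). It ran less with Sdf2l1 (0.771), Dnajb9 (0.454) and Xbp1 (0.247), hardly with Dnajc3 (-0.150) and inversely with Herpud1 (-0.629). The genes outside the 10 closest to Hspa5 were Slc31a1 and Cenpi (0.998 each), Drg1 (0.998), Mapk6 (0.997) and Ifi204 (0.997). The points share their library and fall into D2 and D0, so these values mainly restate the day difference and carry no test.

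Plasma and B cells, which hold much ER chaperone RNA, left few counts in the markers that were matched. The markers Ighm and Igkc were not matched, so their RNA was not counted. The 7 of 9 markers matched summed to 20.8 to 32.7 CPM in KO D2, 27.1 to 37.3 in WT D2, 10.1 to 15.4 in KO D0 and 16.1 to 57.4 in WT D0, with Jchain the most abundant, while Sdc1 stayed at 0.776 CPM or less. Jchain and Mzb1 were called higher and Cd79b lower in KO D2 than in KO D0, and Cd79b lower in WT D2 than in WT D0. Monocyte, macrophage and neutrophil markers summed to 11.9 to 18.7 CPM in KO D2 and 13.9 to 17.4 in WT D2, against 23.6 to 46.6 in KO D0 and 43.4 to 65.5 in WT D0. No marker of these lists was called between the genotypes at D2, whereas of the NK markers Ncr1, Tbx21 and Eomes were lower in KO D2. Ncr1 was also lower in KO D0 than in WT D0 (log2 -0.96, edgeR adjusted p = 0.00632). The part of other cells in the day changes was not tested.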

How the data were processed

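RNA-seq of Ly49H+ NK cells (11 libraries, low-input SMART-seq cDNA amplification per the labels' protocols) was deposited by the authors as whole-number counts per Entrez gene. Per the submitters' processing notes, the tools included bcl2fastq 2.20.0.422, Trimmomatic 0.36, Salmon 0.13.1 (listed also as 13.1) and DESeq2 1.22.2. The notes name mm10; tool roles, and any correction for GC content, are not given in the sources used here. Such counts may be rounded estimates, which can be split unevenly between near-identical genes.

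Symbols, positions and promoters came from RefSeq (GRCm38.p6; 24387 of 24421 IDs matched, the other 34 holding at most 0.0244% of a library). All 11 libraries entered 1 edgeR 4.0.16 quasi-likelihood fit (R 4.3.3, TMM, filterByExpr, 13711 genes, 4 group means, 7 residual degrees of freedom). Calls in the 5 comparisons required an adjusted p (Benjamini-Hochberg, all genes tested) under 0.05. The fit was tested on simulated data. SE were derived from the F statistic. The groups are separated by day and genotype titles, and genotype goes with the CD45.2 or CD45.1 marker, so these cannot be told apart. The p-values measure the spread between libraries. The main fit takes libraries as independent, although KO and WT cells developed together in chimeras.

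The members and lists were chosen with earlier results of these data known. The text names all 10 members, up to 2 called genes per list, comparison and direction with the smallest p (fewer are printed), Dnajb11 and Dnajc1 to complete a count, and the 5 genes closest to Hspa5. Same-numbered KO and WT libraries deviated together at D2 (r 0.217, 0.198 and 0.114), so the numbers were taken to pair them there, although the labels give each sample its own mouse. At D0 the 2 shared numbers gave 0.0275 and 0.410. Same-numbered libraries that differed in both day and genotype gave similar values. These were 0.218, 0.152 and 0.201 for KO D0 with WT D2, and 0.134 and 0.162 for KO D2 with WT D0. A shared number may thus mark something other than a shared mouse, which was not tested. Alternatives were DESeq2 1.42.0, its RLE scaling, no filter, only the compared groups, a replicate block, a GC offset, both, and leaving out each library. For the genotype comparisons and the difference of day changes, the block was the replicate number within a day. KO D0 replicate 1 has no WT partner, so under that block it adds nothing to the D0 estimate or the difference. For the day comparisons the block was the replicate number across days.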

Additional observations from a re-analysis of the deposited data

Results flagged for a closer look

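Each result below was picked out because the change between days differed between the genotypes by a test of the difference itself (edgeR, KO minus WT, log2). Among the 10 genes these were Xbp1 at -1.68, Dnajc3 at -1.41 and Sdf2l1 at -1.65. Among the other ER chaperones they were Creld2 at -1.58, Manf at -0.75 and Dnajc1 at -1.02, and among the disulfide isomerases Pdia3 at -1.42 and Txndc5 at -1.21. Of the ERAD genes they were Sel1l at -0.90 and Derl1 at -1.06. The oligosaccharyltransferase subunits Ddost, Stt3b and Rpn1 differed by -1.54, -1.55 and -0.86, and the transport genes Kdelr2 and Sec24a by -1.12 and -0.86. Uggt1, a glycan quality control enzyme outside the rule for named genes and added after its value was seen, passed as well at -0.84. In all 16 the change was lower in KO than in WT, as it was for 784 of the 801 genes called for this difference over the whole table. Such calls lean on single libraries. Of the 107 other ER genes, 13 were called as reported, 3 without KO D2 replicate 2 and 22 without KO D0 replicate 1. Over the whole table, the 801 calls became 119 without KO D2 replicate 2 and 1418 without KO D0 replicate 1. Manf alone of the 16 has a peak GC under 70% (66.5%), and the part of GC content in the differences was not tested. Groups of 2 or 3 libraries are too small for a test of single outlying libraries.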

How the results depend on the processing

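The 4 members lower in KO D2 than in WT D2 passed under all 18 alternatives, and 0 members were called at D0 under any. Leaving out 1 library moved the number of members called to 4 to 5 for KO D2 against WT D2, 8 to 9 for KO by day, 6 to 8 for WT by day and 0 to 4 for the difference of the day changes (3 as reported; 0 without WT D0 replicate 2). That difference was called for 1 member with the GC offset (Sdf2l1) and for 5 with the replicate block and GC offset together, the 3 reported and Herpud1 lower and Dnajb9 higher. In KO by day, Xbp1 turned to 0.48 with the block and GC offset, and Ero1b, an ER oxidase, to 0.14 with the GC offset and 0.13 with both; for the difference, Dnajb9 turned to 1.19 with both and passed. The GC offset's construction removes GC trends; the cause of the other changes was not tested.

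With the replicate block alone the members called numbered 5 for KO D2 against WT D2, 0 at D0, 8 in KO by day, 8 in WT by day and 4 for the difference. Dnajc3 rose in WT by day under that block (log2 0.67, edgeR adjusted p = 0.00509). Within a genotype, same-numbered libraries of different days gave r 0.0427, 0.0110 and 0.104 in KO and 0.00843 and 0.159 in WT. Between genotypes, same-numbered libraries of different days gave 0.134 to 0.218, and what the numbers share was not tested. The block changed no member's call beyond those of Calr, Herpud1 and Dnajc3.

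Over the 107 other ER genes, the calls between genotypes at D2 were 28 lower and 1 higher as reported, 24 and 3 with RLE scaling, 32 and 3 with the block, 16 and 8 with the GC offset and 18 and 14 with block and offset. Over all 13711 genes these calls were 1986 lower and 221 higher as reported and 1762 and 440 with RLE scaling. They were 2544 and 900 with the block, 1189 and 665 with the GC offset and 1710 and 1517 with block and offset. For the difference of day changes they were 13 lower and 0 higher as reported, 9 and 0 with RLE scaling, 3 and 0 with the GC offset, 28 and 6 with the block, and 1 to 22 lower when a library was left out. Over all 13711 genes the difference was called lower for 784 and higher for 17 as reported, and for 475 and 20 with RLE scaling. With the GC offset it was 113 and 13, and with the block 1997 and 619. RLE scaling shifted the median of all genes by 0.11 in KO by day and by 0.10 in the difference. WT D0 holds 2 libraries, so a fit without one of them assumes that the other varies like the remaining groups. Counting depth limits no member, and the spread of Dnajb9 limits its comparisons.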

Other observations

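Some ER genes of the lists rose by day from a low level. Derl3, a relative of Derl1 in ERAD, was at 3.76 ± 0.06 CPM in KO D2 and 5.21 ± 1.36 CPM in WT D2 (SD, n = 3 each), against 0.52 ± 0.13 CPM in KO D0 (SD, n = 3) and 0.62 ± 0.01 CPM in WT D0 (SD, n = 2). Prdx4, the ER peroxiredoxin, was at 21.1 ± 2.49 CPM in KO D2 against 7.05 ± 0.81 CPM in KO D0 (SD, n = 3 each, log2 1.58, SE 0.16, edgeR adjusted p = 2.88e-06). Among the export genes, Sec23b, a COPII coat subunit, reached 421 ± 7.44 CPM in KO D2 against 122 ± 9.66 CPM in KO D0 (SD, n = 3 each). Lman1, a receptor that carries glycoproteins out of the ER, was at 99.2 ± 7.08 CPM in KO D2 and 146 ± 11.2 CPM in WT D2 (SD, n = 3 each), against 35.7 ± 2.84 CPM in KO D0 (SD, n = 3) and 37.1 ± 4.28 CPM in WT D0 (SD, n = 2). Sec24a and Sec24b, subunits of the same coat, fell in KO by day (log2 -1.26 and -0.84).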
